A study of Caenorhabditis elegans with 2 samples.

Results

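The genes described here code for helpers of the HSP70 and HSP90 chaperones and for the mitochondrial chaperonin of Caenorhabditis elegans. Each has an RPC-1 peak within 500 bp of its annotated 5′ end. RPC-1 is the largest subunit of RNA polymerase III. The 6 genes are dnj-12, dnj-13, bag-1, ahsa-1, Y22D7AL.10 and hsp-60, out of 19971 nuclear protein-coding genes in the RefSeq annotation. They were chosen by the peak values themselves: each has a peak of the reproducible list within 500 bp of its annotated 5′ end, and the heat shock motif near the peaks and the replicate lists were also part of the choice. The presence of a peak is therefore not a finding, and no test was made on it. For scale, 499 of the 19971 genes (2.5%) had such a peak.

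The study used strain N2 and took whole worms at the young adult stage, with both sexes pooled (given as male and female). Their chromatin was immunoprecipitated with an antibody against RPC-1 and sequenced. The labels give 1 group with 2 biological replicates, no comparison group and an unknown age. They name no heat treatment. The signal is a sum over all tissues of the worm, so binding in few cells and weak binding in many cells cannot be told apart. The deposited lists hold 1320 reproducible peaks, with a signal between 35.6 and 1269 and a median of 145. They also hold a relaxed list of 20662 regions from pooled data and a relaxed list of 30000 regions from each replicate, in which background regions are meant to be included. The lists give no read counts, so the depth behind each peak is unknown.

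RNA polymerase III makes short noncoding RNAs such as tRNAs and 5S rRNA, whose promoters lie partly inside the genes, and protein-coding genes are transcribed by RNA polymerase II. HSP70 chaperones bind unfolded stretches of protein in a cycle of ATP hydrolysis. J-domain proteins bring clients to HSP70 and stimulate hydrolysis, and BAG-domain proteins release the nucleotide so that the cycle can start again. AHSA-1 is the worm counterpart of the mammalian activator of the HSP90 ATPase. HSP60 forms the barrel in which mitochondrial proteins fold, and HSP10 forms its lid. Many chaperone genes are switched on by heat shock factor, HSF-1, which binds inverted repeats of the unit GAA called heat shock elements.

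The bases at the strongest 2 of the 5 peaks are shown because they carry heat shock units described below in different places relative to the summit. They were read 5′ to 3′ on the strand of the gene from the RefSeq assembly WBcel235, which is ce11. Capitals mark each run of at least 2 units, GAA or its reverse complement TTC in alternation with 2 bases between units, that is, GAANNTTC or TTCNNGAA and longer runs. The dnj-13 stretch is chrII:11545281-11545580, plus strand, with the summit at base 221. The Y22D7AL.10 stretch is chrIII:1618935-1619234, minus strand, with the summit at base 101.
dnj-13: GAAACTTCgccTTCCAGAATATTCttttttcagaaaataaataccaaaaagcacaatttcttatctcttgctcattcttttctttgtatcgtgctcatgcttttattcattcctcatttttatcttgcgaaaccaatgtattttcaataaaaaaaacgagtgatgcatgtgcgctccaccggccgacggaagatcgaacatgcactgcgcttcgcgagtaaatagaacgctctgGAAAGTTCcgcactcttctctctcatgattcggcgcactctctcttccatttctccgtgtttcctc
Y22D7AL.10: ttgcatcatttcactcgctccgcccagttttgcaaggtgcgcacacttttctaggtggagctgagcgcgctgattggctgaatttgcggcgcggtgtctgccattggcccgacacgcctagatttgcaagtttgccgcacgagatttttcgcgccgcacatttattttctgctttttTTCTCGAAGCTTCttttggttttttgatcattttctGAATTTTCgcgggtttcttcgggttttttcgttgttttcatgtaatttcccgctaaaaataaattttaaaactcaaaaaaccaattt

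In both stretches the capitals lie within 150 bp of the summit at least once. The Y22D7AL.10 stretch holds a run of 3 units and a pair, both on the side of Y22D7AL.10. In the dnj-13 stretch the long run and a neighbouring pair are at the far end, outside the peak, and only a pair is close to the summit.

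All 6 genes are accounted for by 5 peaks, since Y22D7AL.10 and hsp-60 are divergent neighbours on chromosome III and share a peak. The 5 summits lay upstream of the nearest 5′ end among the 6 genes, from -232 to -176 bp. Distances are counted along the strand of the gene, with minus for upstream, from the RefSeq 5′ end. From the nearest 5′ end of any protein-coding gene, the ahsa-1 summit was at -133 bp, upstream of its neighbour C01G10.7, and the other 4 distances stayed as they are. Measured in that way, the other 252 reproducible peaks at protein-coding 5′ ends without a polymerase III or snoRNA gene within 500 bp had their summits at a median of -175 bp, with quartiles of -304 and -59.5 bp. Of those, 210 lay upstream.

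**Figure D1:**
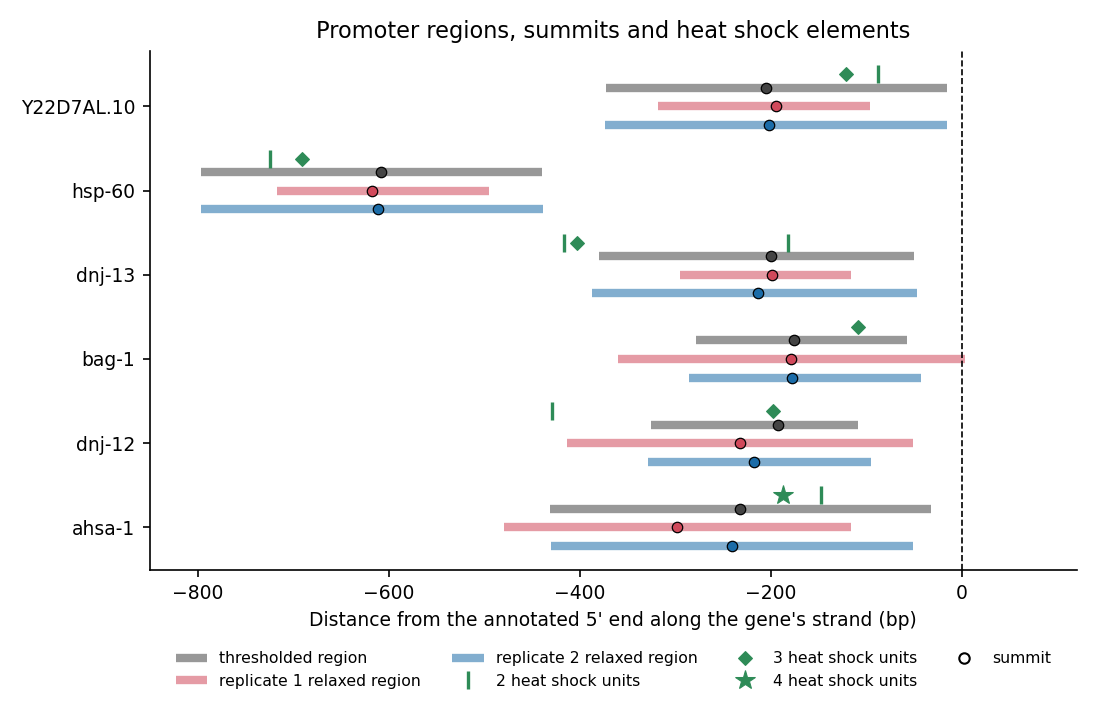
Position of each reproducible peak and of the strongest region in each replicate's relaxed list (bars), with their summits and the nearby heat shock runs. Positions are relative to the 5′ end of the gene, in bp along the strand of the gene, 1 row per gene. In the reproducible list the summits of 5 genes lie between -232 and -176 bp. That of hsp-60 lies at -608 bp because it shares the peak of Y22D7AL.10.

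The 2 J-domain genes differed in peak strength. DNJ-13 is the worm counterpart of the class B J-domain proteins, and its gene (WBGene00001031, chromosome II, 11545701 to 11547360, plus strand) had a peak at 11545321 to 11545651. The signal was 419, rank 261 of 1320, and the summit was at -200 bp. In replicate 1 alone the signal was 123, rank 319 of 30000, and in replicate 2 alone it was 296, rank 238 of 30000. Each list has its own signal scale, so strength is compared between lists by rank. The peak was therefore among the strongest in both replicates, and the 2 summits, at -199 and -214 bp, were 15 bp apart. It overlaps 2 annotated noncoding RNA genes, F54D5.22 and F54D5.18. None of the other 4 member peaks overlaps a noncoding RNA gene, and 26 of the other 252 promoter peaks (10.3%) overlap such a gene.

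DNJ-12 is a class A J-domain protein, and its gene (WBGene00001030, chromosome I, 14757063 to 14758787, plus strand) had a peak at 14756737 to 14756954 with a signal of 143, rank 664 of 1320. The signal was 36.0 in replicate 1, rank 751, and 111 in replicate 2, rank 626. The summits were at -232 bp in replicate 1 and -218 bp in replicate 2, and at -193 bp in the reproducible list. The position relative to the gene depends on the annotation: the Ensembl 5′ end lies 159 bp further upstream, and from there the summit was at -34 bp. The start codon, which does not depend on the 5′ end, was 209 bp downstream of the summit. The 5′ end of mtx-1 is on the other side, and the summit was at -458 bp from it.

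BAG-1 is the BAG-domain nucleotide exchange factor of HSP70. The gene bag-1 (WBGene00000236, chromosome I, 6563629 to 6564451, minus strand) had a peak at 6564509 to 6564729 with a signal of 159, rank 634 of 1320. Replicate 1 gave 36.3, rank 747, and replicate 2 gave 124, rank 597, close to the dnj-12 values in both. The summits were the tightest of the group, at -179 and -178 bp in the replicates and -176 bp in the reproducible list.

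The weakest of the 5 peaks was at ahsa-1 (WBGene00007235, chromosome V, 15084059 to 15085382, minus strand). It ran from 15085414 to 15085813, with a signal of 69.7 and rank 900 of 1320. The replicates differed most here: the signal was 10.5 in replicate 1, rank 4706 of 30000, and 61.1 in replicate 2, rank 809 of 30000. The peak is therefore outside the strongest 1320 regions of replicate 1 and inside those of replicate 2. The summits were 57 bp apart, at -298 and -241 bp, against 1 to 15 bp for the other 4 peaks. The peak also overlaps C01G10.7, a divergent neighbour, whose 5′ end is closer, with the summit at -133 bp from it, so which of the 2 genes the peak belongs to cannot be told apart.

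The strongest peak lay between the mitochondrial chaperonin genes. Y22D7AL.10 (WBGene00021248, chromosome III, 1617151 to 1618929, minus strand) codes for HSP10, and hsp-60 (WBGene00002025, chromosome III, 1619742 to 1625803, plus strand) codes for HSP60. The peak at 1618945 to 1619302 had a signal of 549, rank 126 of 1320. Replicate 1 gave 149, rank 218, and replicate 2 gave 392, rank 105. Its edge was 16 bp from the 5′ end of Y22D7AL.10, with the summit at -205 bp, and 440 bp from that of hsp-60, with the summit at -608 bp. The hsp-60 gene is thus just inside the limit of 500 bp, and in replicate 1 the gap was 495 bp. Both summits of the replicates, at -195 and -202 bp from Y22D7AL.10, were closer to the HSP10 gene.

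**Figure D2:**
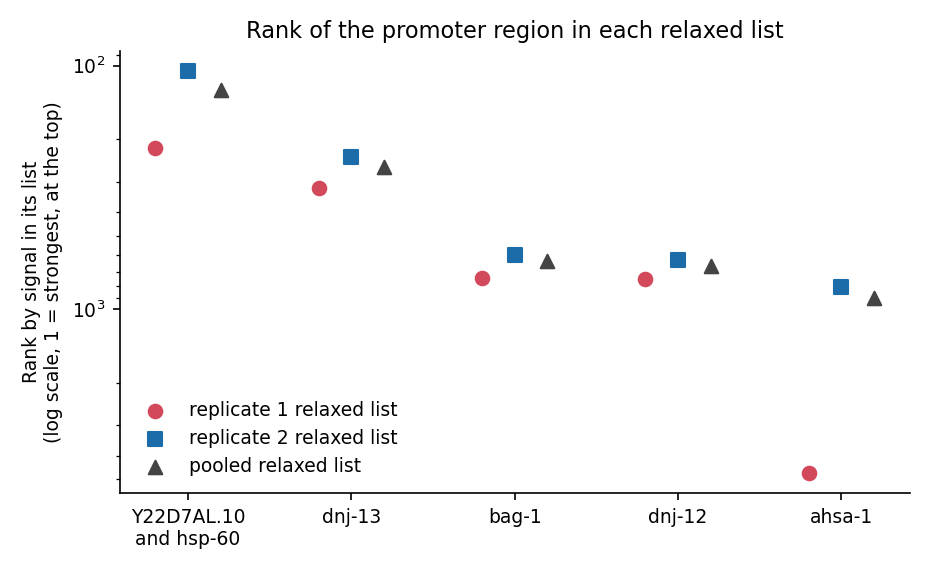
Rank by signal of each member peak in the pooled relaxed list and in the relaxed list of each replicate. The log axis is inverted, with rank 1, the strongest, at the top. The shared peak of Y22D7AL.10 and hsp-60 is strongest, between rank 105 and rank 218. The ahsa-1 peak ranges from rank 809 in replicate 2 to rank 4706 in replicate 1.

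Ranked by signal among all 257 such promoter peaks, the shared chaperonin peak was 4th, dnj-13 was 9th, bag-1 was 34th, dnj-12 was 38th and ahsa-1 was 107th. The 5 member peaks had a median signal of 159, against 58.2 for the other 252, whose quartiles were 44.6 and 103 and whose range was 35.6 to 1209. Of the other 252, 102 had a signal above that of ahsa-1. The lowest signal in the reproducible list is 35.6, and the list is thresholded on reproducibility between replicates, so the distance of ahsa-1 from its limit cannot be read from the signal.

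Each of the 6 genes also had a region within 500 bp in the pooled relaxed list and in both replicate lists. These lists are permissive: the share of all protein-coding genes was 31% in the pooled list, 39.8% in replicate 1 and 38.9% in replicate 2. Among the strongest 1320 regions of each replicate, the shares were 2.68% in replicate 1 and 2.21% in replicate 2. Under that limit replicate 2 met all 6 genes, and replicate 1 met 5, without ahsa-1.

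The ratio of the replicate 2 signal to the replicate 1 signal at the member peaks was 2.41 for dnj-13, 2.62 for Y22D7AL.10 and hsp-60, 3.08 for dnj-12, 3.41 for bag-1 and 5.8 for ahsa-1. The other promoter peaks met in both replicates, 238 in number, had a median ratio of 2.04, with quartiles of 1.26 and 2.91 and a range of 0.144 to 8.75. At 12 of these 238 the ratio was as high as at ahsa-1 or higher. The scales of the 2 lists differ, so a member's ratio is read only beside those of the other peaks.

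**Figure D3:**
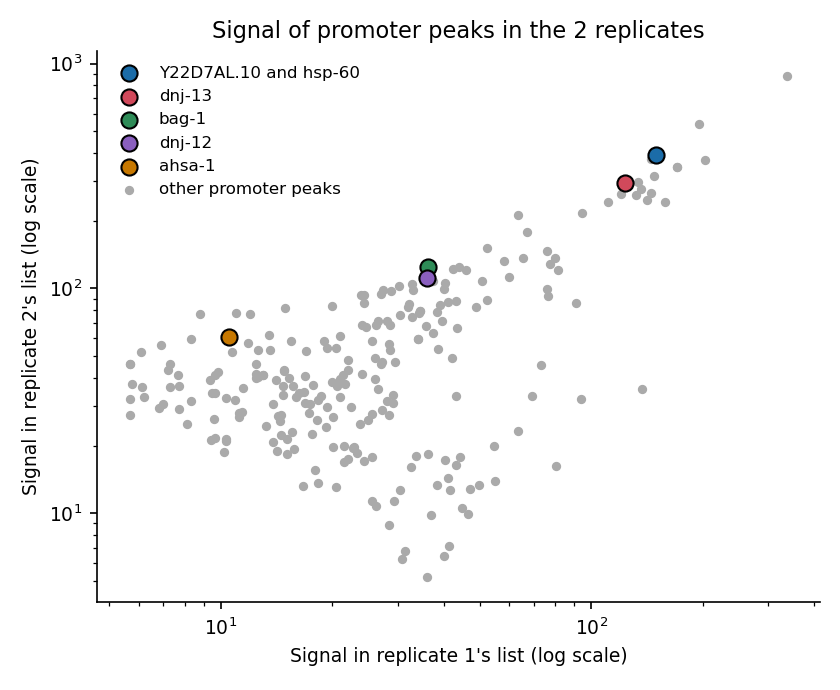
Signal of each promoter peak in replicate 1 and in replicate 2, both on log axes, with the member peaks in colour and the other promoter peaks in grey. The member peaks lie at 10.5 to 149 in replicate 1 and at 61.1 to 392 in replicate 2, and ahsa-1 stands farthest from the other members.

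Heat shock units were found near every member peak, which was also part of how the genes were chosen. All 5 peaks had a pair of units within 150 bp of the summit, and 4 of 5 had 3 or more units, with dnj-13 having a pair only. Among the other 252 promoter peaks, 106 (42.1%) had a pair and 31 (12.3%) had 3 or more units. In promoters of all 19971 genes, in a window of the same length centred 200 bp upstream of the 5′ end, the shares were 32.2% for a pair and 1.97% for 3 or more units.

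The runs did not sit at a fixed place relative to the summit. At dnj-12 a run of 3 units was centred 5 bp from the summit on the upstream side, and at dnj-13 the pair was 17.5 bp from it on the gene side. The run of 4 at ahsa-1 was 44.5 bp from the summit, and the runs of 3 at bag-1 and Y22D7AL.10 were 67 and 83 bp from it, all on the gene side. In distance from the 5′ end these runs were at -198, -182.5, -187.5, -109 and -122 bp. The 3-unit run of dnj-13 was at -403 bp, 203 bp from the summit and outside the peak, and dnj-12 had a further pair at -429.5 bp.

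**Figure D4:**
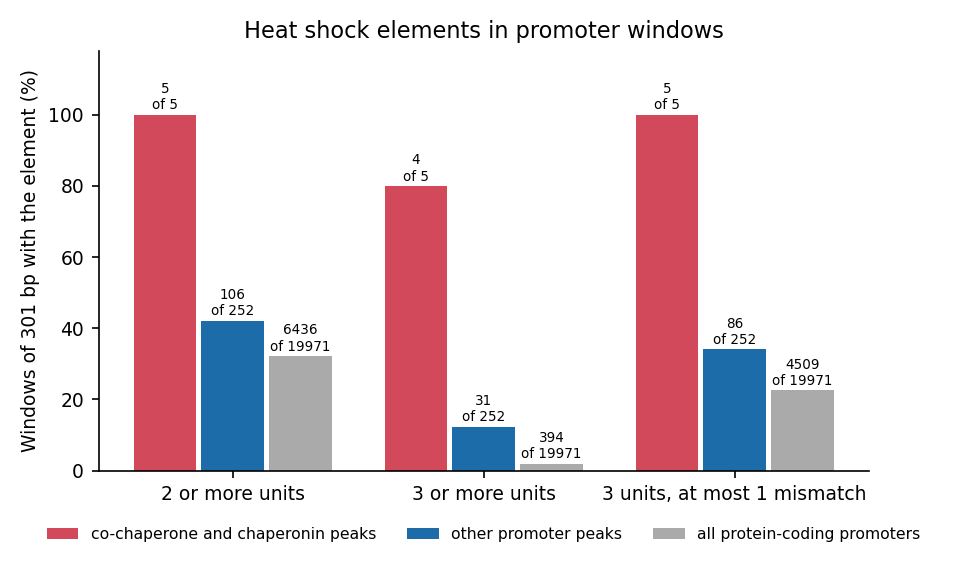
Percentage of the 5 member peaks, the 252 other promoter peaks and all 19971 promoters that hold a pair of heat shock units, 3 or more units, or 3 units with at most 1 mismatched base, within 150 bp of the summit or window centre. The member peaks are at 100, 80 and 100%, the other promoter peaks at 42.1, 12.3 and 34.1%, and all promoters at 32.2, 1.97 and 22.6%.

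With 1 mismatched base allowed in a run of 3 units, all 5 member peaks had such a run, beside 34.1% of the other promoter peaks and 22.6% of all promoters. The B box, the inner element of the tRNA promoter, was found within 150 bp of none of the 5 summits, and it was found in 0.446% of all promoters of the same length. The nearest polymerase III or snoRNA gene was 2224 bp away at dnj-12 (F39B2.14, a snoRNA gene) and 13027 bp or more at the others, up to 70869 bp at ahsa-1. The GC content within 150 bp of the summit ran from 28.2% at ahsa-1 to 44.2% at Y22D7AL.10, on both sides of the median of 37.7% for the other promoter peaks. A motif match describes the letters in the window and is not a measurement of HSF-1 binding.

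Lists of related chaperone genes, chosen with these peaks known, put the 6 genes in their families. Of 59 genes in 6 lists, 18 had a reproducible peak within 500 bp: the 6 described above and 12 of the other 53 (22.6%), beside 2.5% of all protein-coding genes. All 12 had the summit upstream of the 5′ end and none had a polymerase III or snoRNA gene within 500 bp. Their signals ran from 35.8 to 382 with a median of 110. For 8 of the 12, the 5′ end of another gene was closer to the summit: dnj-11, dnj-19, hsp-110, hsp-90, fkb-6, hsp-6, cct-1 and cct-8. The gene counted and its neighbour cannot be told apart there.

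The members were chosen for having a peak, so each list count that includes members is also given without them. Among J-domain genes, 5 of 29 had a peak: the members dnj-12 and dnj-13, and 3 of the other 27, dnj-11, dnj-19 and dnj-29. The last 3 had signals of 37, 35.8 and 110, all below both members, and dnj-11 and dnj-19 had no region in the list of replicate 1. Nucleotide exchange factors of HSP70 had 3 of 3, or 2 of 2 without bag-1. Beside bag-1 they were unc-23, another BAG-domain gene (signal 278, summit at -66 bp), and hsp-110 (382, summit at -244 bp). Both had higher signals than bag-1.

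HSP90 and its co-chaperones had 5 of 10, or 4 of 9 without ahsa-1. Beside ahsa-1 they were hsp-90 itself (signal 204, summit at -351 bp), sti-1, the adaptor between HSP70 and HSP90 (110, -31 bp), fkb-6, an FKBP immunophilin (67.6, -460 bp), and hip-1, an HSP70-interacting protein (44.7, -287 bp). The ahsa-1 signal was below those of hsp-90 and sti-1 and above those of fkb-6 and hip-1. The mitochondrial chaperonin and HSP70 had 3 of 3, with hsp-6, the mitochondrial HSP70, at a signal of 112 and a summit at -372 bp, lower than the shared chaperonin peak. Without the 2 members, which share 1 peak, the count was 1 of 1, hsp-6. Within 250 bp of the 5′ end the whole list had 1 of 3, Y22D7AL.10.

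The cytosolic chaperonin, a ring of 8 different subunits that folds actin and tubulin among other clients, had 2 of 8, cct-1 (signal 98.1, summit at -233 bp) and cct-8 (120, -412 bp). Prefoldin, which delivers clients to that ring, had 0 of 6. None of the 41 list genes without a peak had 1 between 500 and 1500 bp of the 5′ end. Of the 12 other genes with a peak, 10 had a pair of heat shock units within 150 bp of the summit. A run of 3 or more was found at 3 of them (hsp-110, hip-1 and hsp-6). The member peaks, chosen partly for this motif, had 5 and 4 of 5. Among all 252 promoter peaks other than the members', which include those of these genes, the shares were 42.1% and 12.3%. Where another 5′ end is closer to the summit, the units may lie in the promoter of that neighbour.

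**Figure D5:**
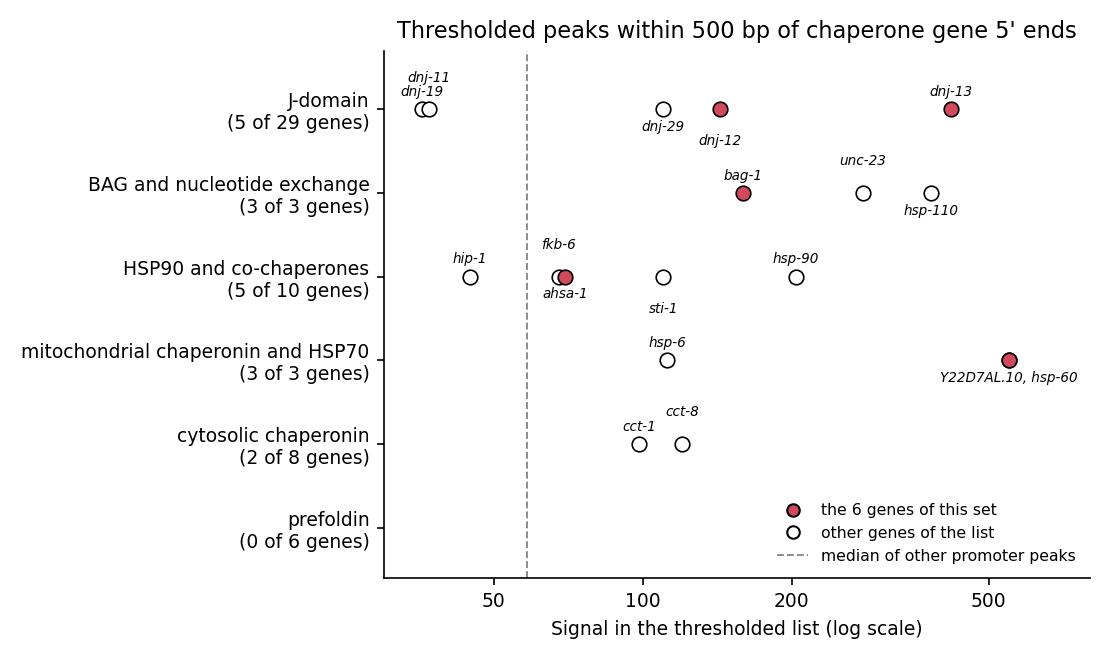
Signal (log axis) of the reproducible peak of each of the 18 chaperone genes that have 1, grouped by list, with the 6 genes described here in colour. Y22D7AL.10 and hsp-60 are at 549 and dnj-13 at 419, above the other 12 genes, which range from 35.8 to 382.

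The genes most like each member in rank over the pooled and both replicate lists were looked up among 328 genes with a reproducible peak and no polymerase III or snoRNA gene near it. Likeness is the summed absolute difference of log2 rank over the 3 lists, and genes that share the same peak were passed over. The nearest to dnj-13 was hsp-1, the constitutive cytosolic HSP70 (0.273, signal 425). The nearest to dnj-12 was rsf-1 (0.0565, signal 146), to bag-1 scc-2, which loads cohesin on chromosomes (0.128, signal 164), to ahsa-1 F54H12.10 (0.194, signal 71.4), and to Y22D7AL.10 and hsp-60 gfrl-1 (0.526, signal 523). The likeness is of rank only.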

How the data were processed

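Chromatin immunoprecipitation with an RPC-1 antibody was done on 2 biological replicates, per the labels. The authors deposited peak lists in narrowPeak form on ce11, which is the assembly WBcel235: a reproducible list thresholded by the irreproducible discovery rate, a pooled relaxed list and a relaxed list for each replicate, per the file names. The signal of each region and its summit offset are the authors' deposited values. Signals were set side by side only within a list, and between lists only as ranks or as a ratio stated as such. For the peak caller and the aligner, the sources used here give neither name nor settings. Per the deposited file notes, peaks were called against a control library, which was not analysed here. The lists on ce10 were not used.

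Each peak was assigned to a gene when its edge lay within 500 bp of the annotated RefSeq 5′ end. Promoter peaks away from polymerase III genes had no gene within 500 bp for a snoRNA, a Y RNA, a tRNA, 5S rRNA, U6, or the RNA of SRP, RNase MRP or RNase P. Heat shock units and the B box were searched on both strands within 150 bp of each summit, after the search was tested on simulated sequences. The genes named are the 6 members, every other gene of the chaperone lists with a peak and the gene nearest to each member in rank. Neighbours are named at dnj-12 and ahsa-1, as are the noncoding RNA genes at dnj-13 and the snoRNA gene nearest to dnj-12. The members and lists were chosen with earlier results of these data known. With 1 group and 2 replicates no test was made, and values are descriptions. Python 3.11.15, NumPy 2.4.6, pandas 2.3.3 and Matplotlib 3.10.9 were used.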

Additional observations from a re-analysis of the deposited data

How the results depend on the processing

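No paired analysis was possible because the study has 1 group. With 250 bp in place of 500 bp, or with the summit required inside the window, 5 of the 6 genes kept a peak, without hsp-60. The share of all protein-coding genes was 1.8% with 250 bp and 2.05% with the summit inside the window, in place of 2.5%. The other chaperone genes with a peak numbered 8 with 250 bp, without hsp-90, fkb-6, hsp-6 and cct-8, and 12 with the summit inside the window. Among the 660 strongest peaks 4 of the 6 genes kept a peak, without dnj-12 and ahsa-1. The other chaperone genes with a peak numbered 3 in place of 12, and the share of all protein-coding genes also fell, to 0.816%. Leaving out 1 replicate (taking the strongest 1320 regions of the other) gave 6 genes without replicate 1 and 5 without replicate 2, where ahsa-1 was lost. The other chaperone genes numbered 15 and 10, and the shares of all protein-coding genes were 2.21% and 2.68%. Without replicate 1 the 15 included further genes of the HSP90 and cytosolic chaperonin lists. Without replicate 2 the 10 included a prefoldin gene and lacked dnj-11, dnj-19 and hip-1. The list counts given above therefore hold for the reproducible list only. The Ensembl annotation was an alternative chosen after seeing the data. With it all 6 genes and 11 others were met, without hsp-90, beside 2.51% of all protein-coding genes. The search for heat shock units with 1 mismatch was also chosen after seeing the data. It found 6 of 6 genes, beside 34.1% of the other promoter peaks and 22.6% of all promoters. Within 150 bp of the summit 5 of the 6 genes had 3 or more units, which is 4 of the 5 peaks. The shares were 12.3% of the other promoter peaks and 1.97% of all promoters. Within 75 bp 4 of the 6 genes had a pair, and no share of other peaks was taken for that window, so this count has no scale. The summit lay upstream in all 24 alternative distances, of which 10 were within the spread of the replicates. These distances are not independent, since Y22D7AL.10 and hsp-60 share 1 peak. In every member the start codon lies downstream of the 5′ end, so the distances from it had to stay upstream. The distances in each replicate alone were set against a spread made from those same distances. The counts are therefore no measure of robustness. For dnj-13, bag-1, Y22D7AL.10 and hsp-60 the Ensembl and RefSeq 5′ ends are the same, so that alternative could not differ. The depth of the lists is unknown, which limits how firmly the ahsa-1 peak and the replicate ratios can be read.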

Other observations

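The relaxed lists also hold weaker regions over the 6 genes and the 500 bp beside them. In the pooled list dnj-13 had a region with a signal of 19.2, rank 2609 of 20662, whose summit was 19 bp before the annotated 3′ end, and replicate 2 alone had a region of 16.2, rank 1664 of 30000, with the summit 131 bp before that end. The gene bag-1 had a region at 455 bp downstream of the 5′ end, with a signal of 16.9 and rank 3520 in the pooled list, and regions at 416 and 498 bp in the replicates. For hsp-60 the strongest region in the pooled list was at 2922 bp downstream (18.7, rank 2753), and replicate 1 had a region at 2916 bp (7.92, rank 11202). In replicate 2 the strongest region over hsp-60 was at 382 bp (8.6, rank 4030), and the nearest to 2922 bp was at 2987 bp (3.88, rank 16500). Within the replicate 2 list, the highest signal among these regions was at dnj-12, with the summit 687 bp past the annotated 3′ end (40.4, rank 982). The dnj-12 regions of the other lists lay elsewhere. Replicate 1 had a region 218 bp past that end (10.2, rank 5276), and the pooled list had a region 29 bp before it (12.9, rank 7449). None of these is in the reproducible list, and the relaxed lists include background regions.

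Of the 12 other chaperone genes with a peak, 3 have an annotated noncoding RNA gene under it, as dnj-13 has. Among all 252 promoter peaks other than the members', which include those of these genes, 26 (10.3%) overlap such a gene. With counts this small, no difference is read from them.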
